A study of Mus musculus with 32 samples.

Results

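Hox genes encode homeodomain transcription factors, and the mouse genome carries 39 of them in clusters on 4 chromosomes. They were taken here by symbol, as the protein-coding genes named Hox, a cluster letter (A to D) and a paralog number in the GENCODE M21 annotation, which gave 39 of the 55385 genes listed for each RNA library. Cluster A holds 11 genes (on the minus strand of chromosome 6), cluster B 10 (chr11:96194316-96368256 in GRCm38, plus strand), cluster C 9 (chr15:102921103-103036852, plus strand) and cluster D 9 (chr2:74668310-74765142, plus strand). Genes with the same number in different clusters are paralogs. The numbers 1 to 4 are called anterior here (12 genes), 5 to 8 central (11 genes) and 9 to 13 posterior (16 genes).

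In later embryos Hox genes are switched on in the order in which they lie along each cluster, anterior genes first, and set the identity of segments along the head-to-tail axis and in the limbs. Before that they are held silent by Polycomb complexes, which trithorax proteins and retinoic acid signalling oppose. Their proteins bind DNA together with cofactors of the Pbx, Meis and Pknox families.

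The study followed genome activation in mouse embryos made by in vitro fertilisation of B6D2F1/J oocytes with B6D2F1/J sperm, wild type, from mice aged 6 to 8 weeks and cultured in KSOM medium. A-485, an inhibitor of the histone acetyltransferases CBP and p300, was given at 10 µM from 4 to 20 h after insemination, and embryos kept in DMSO, its solvent, served as controls at each of 3 stages (zygote, early 2-cell, late 2-cell). The late 2-cell embryos of this experiment had been washed out of A-485 at 20 h. The sources used here do not state in words the hour at which these zygotes were collected, so their exposure may have been shorter. Trichostatin A (TSA), an inhibitor of histone deacetylases, was given at 50 nM from 8 to 28 h and compared with its own DMSO group at the late 2-cell stage. Each of the 8 RNA groups held 2 libraries of total RNA from whole embryos, and accessible chromatin was profiled by ATAC-seq with 1 peak list for each of 4 groups. The labels call the libraries replicates without naming separate cultures, so the p-values measure the spread between these libraries, which may be technical.

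The libraries held 13206163 to 32585987 assigned reads. The share of reads from mitochondrially encoded genes was 2.35 to 2.44% in late 2-cell DMSO and 5.35 to 5.43% in late 2-cell A-485 libraries, against 2.39 to 2.71% and 3.66 to 3.72% in the DMSO and TSA libraries of the TSA experiment. Oocyte and early embryo markers were present in every library, with a summed level of 1183.68 to 4115.3 FPKM (fragments per kilobase of transcript, scaled to the fragments of the library). Fibroblast markers summed to 0.66 to 1.02 FPKM in late 2-cell DMSO and 19.77 to 26.0 in A-485, with 2 of 8 higher and Col1a2, Dcn and Lum at 0 in A-485. They summed to 2.11 to 3.02 in DMSO and 17.31 to 20.15 in TSA, with 4 of 8 higher and Dcn and Lum at 0 in TSA. Erythroid markers summed to 1.06 to 1.5 FPKM in DMSO and 45.39 to 47.34 in TSA, with 3 of 8 higher and Hbb-bt and Hbb-bs at 0. In A-485 they summed to 0.6 to 2.56, against 3.67 to 4.76 in its DMSO group, with 1 of 8 lower. Cumulus cell markers summed to 1.11 to 1.82 and 4.05 to 4.06 in DMSO and A-485, where Has2 and Foxl2 were higher and Amh and Fshr were at 0, and to 1.4 to 1.51 and 2.59 to 3.11 in DMSO and TSA, where 0 of 10 were called. Markers of the trophoblast and inner cell mass summed to 116.84 to 134.84 FPKM in DMSO and 209.04 to 232.05 in late A-485, where Gata3 (11.1-fold) and Sox2 (4.23-fold) rose, and to 142.27 to 143.46 in DMSO and 219.56 to 227.58 in TSA, where Cdx2, Gata3, Krt8 and Sox2 rose. With A-485 at the early 2-cell stage, where they summed to 309.48 to 322.95 against 246.5 to 257.64 in DMSO, Krt8 and Sox2 fell. The part of these other genes in the Hox results was not tested.

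The most abundant Hox transcript in each of the 8 groups was Hoxa7 (ENSMUSG00000038236, chr6:52214491-52221854). It stood at 23.66 and 25.94 FPKM in zygote DMSO libraries, 31.15 and 32.42 in early 2-cell DMSO, 18.25 and 19.27 in late 2-cell DMSO and 16.12 and 15.64 in the DMSO libraries of the TSA experiment. It made up 65.1 to 83.6% of the summed Hox FPKM outside the treated late 2-cell groups. The other 38 members were low in the DMSO embryos, where 1 to 5 of 39 members reached a mean of 1 FPKM. Besides Hoxa7 these included Hoxd9 in zygotes, and Hoxb2, Hoxd9 and Hoxd13 in early 2-cell embryos. In late 2-cell DMSO embryos of both experiments Hoxa7 was alone above 1 FPKM. No member was at 0 in all 16 libraries, and Hoxc12 was the lowest.

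**Figure D1:**
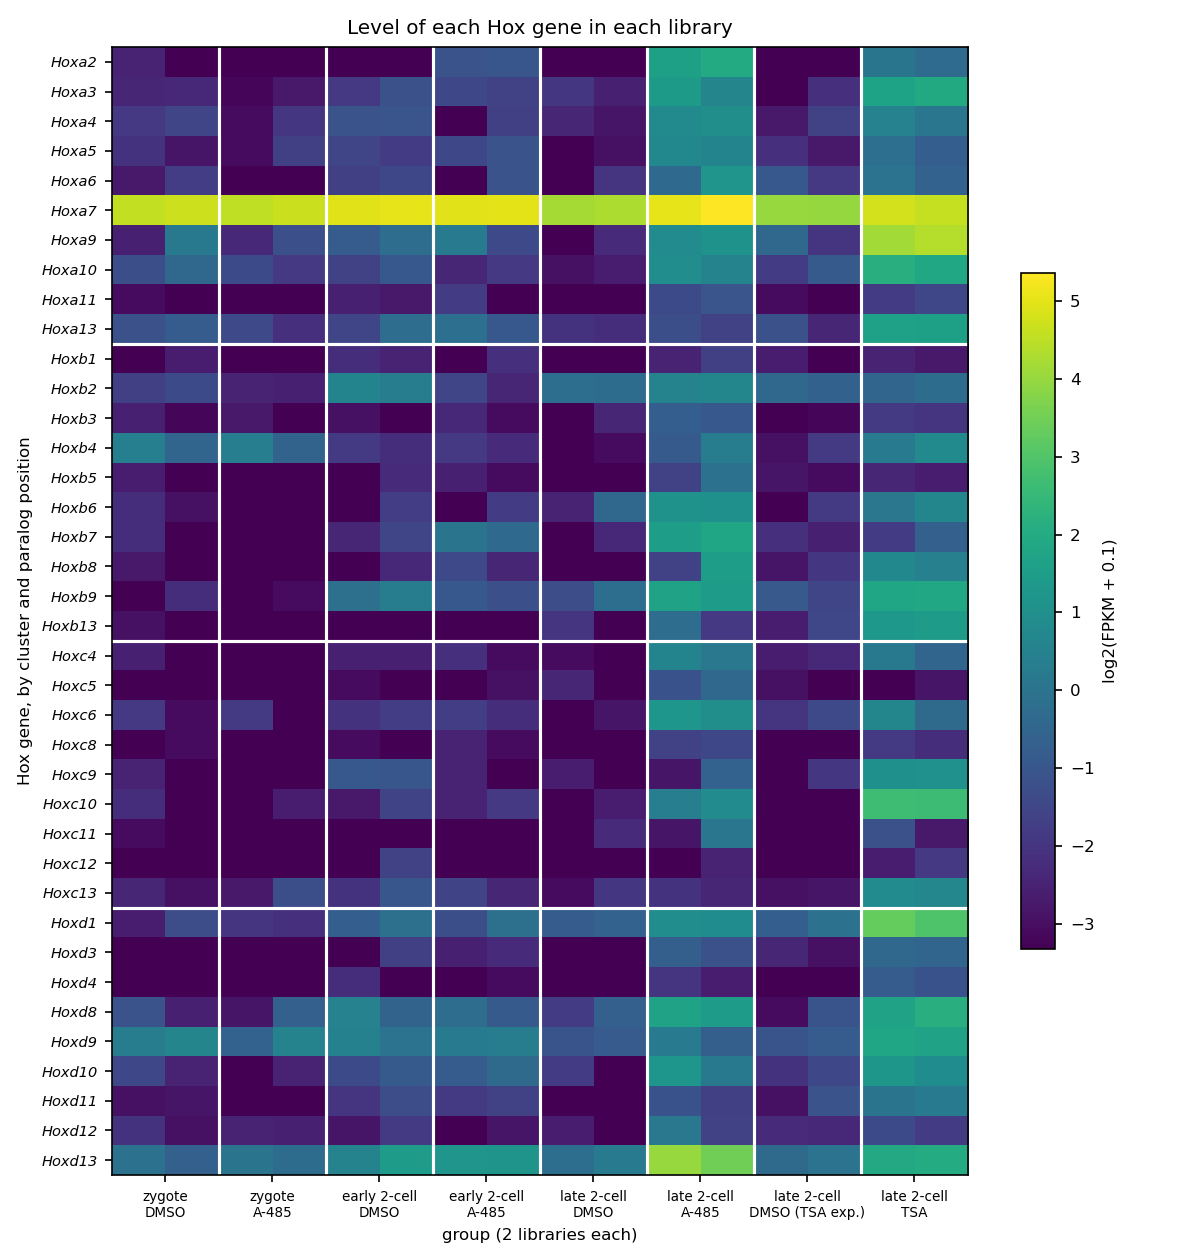
Heatmap of the level of 38 Hox genes (rows, by cluster and position) in the 16 RNA libraries (columns, by group), in colour as log2 of FPKM plus 0.1. Hoxa7 stands out in each column, and the late 2-cell A-485 and TSA columns are brighter than those of their DMSO groups in most rows.

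Normal development was read from the DMSO groups. A gene was called changed where edgeR's quasi-likelihood test gave an adjusted p under 0.05 over all genes tested, the fold was at least 2 and the mean reached 1 FPKM in either group. From zygote to early 2-cell, 3 of 39 members were called, all higher, where 26.2% of all genes tested were called. Hoxb2 (ENSMUSG00000075588), a hindbrain gene, rose 5.61-fold (log2 2.49 ± 0.67, SE; adjusted p = 0.0078), from 0.21 and 0.29 to 1.40 and 1.15 FPKM. Hoxd13 (ENSMUSG00000001819, chr2:74668310-74671599), which shapes the digits, rose 3.1-fold (adjusted p = 0.008), from 0.86 and 0.54 to 1.36 and 2.71 FPKM. From early to late 2-cell, 1 member was called, against 24.8% of all genes. Hoxb2 and Hoxd13, at 0.77 and 0.73 and at 0.78 and 1.09 FPKM in late 2-cell DMSO, did not pass the test here (adjusted p = 0.43 and 0.087). From the zygote to the early 2-cell stage, scaling to mitochondrially encoded genes lost the rises of Hoxb2 and Hoxd13 and called Hoxd9 lower, as it moved the median log2 change of all genes from 0.08 to -1.24.

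In zygotes, 0 of 39 members were called higher or lower with A-485 by edgeR, where 0.00548% of all genes were called higher and 0.0657% lower. Of the 18 members tested, 0 had an unadjusted p under 0.05, and DESeq2 also called 0. Hoxa7 was at 22.78 and 25.16 FPKM with A-485 beside 23.66 and 25.94 in DMSO (adjusted p = 1.0), and 18 members were listed at 0 in both A-485 libraries, against 4 in DMSO. The members at 0 in A-485 had no more than 5 counts over both DMSO libraries. Of 1464 olfactory and vomeronasal receptor genes, 13.3 and 10.9% had a count in the DMSO libraries and 8.9 and 9.5% in those of A-485.

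At the early 2-cell stage 2 of 39 members fell with A-485 and 0 rose, where 7.9% of all genes tested were called lower and 0.402% higher. Hoxb2 was at 1.40 and 1.15 FPKM in DMSO and 0.25 and 0.09 in A-485. Its fall was 7.61-fold (log2 -2.93 ± 0.8; adjusted p = 0.033), and the groups did not overlap. It was also among the members that had risen from the zygote to this stage in DMSO embryos, a comparison that shares the early 2-cell DMSO libraries. Hoxd13 and Hoxa7 gave 1.08-fold and 1.0-fold, with adjusted p of 0.9 and 0.98. Hoxa2, without a read in DMSO, was at 0.37 and 0.40 FPKM in A-485 with an adjusted p of 0.074. DESeq2 also called 2 members lower, 1 member had an unadjusted p under 0.05 upward and 4 downward. The call of Hoxb2 was lost without A-485 replicate 2 or either DMSO library, and leaving out each library in turn left 0 to 1 members called. Exons of Hoxb2 overlap the antisense gene Hoxb3os, and whether the counting kept the strands apart is not given in the sources used here. All 5 matched markers of the 2-cell stage, such as Zscan4c and Zfp352, were also lower with A-485 at this stage, and their part in the result was not tested.

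At the late 2-cell stage, after A-485 had been removed, 17 of 39 members rose and 0 fell, where 10.5% of all genes tested were called higher and 16.8% lower. In bulk libraries, more cells with a transcript and more of it per cell cannot be told apart, nor can fewer cells and less of it per cell. The median over the 39 members went from 0.045 FPKM in DMSO to 1.42 in A-485, beside 0.855 and 1.335 over 21897 protein-coding genes. Both A-485 libraries lay above both DMSO libraries for 35 of 39 members, as they did for 42.3% of all genes tested. The 38 members other than Hoxa7 summed to 4.67 and 7.28 FPKM in DMSO and 67.91 and 67.41 in A-485. As CPM (counts scaled to the library total, without regard to length), these members went from 8.89 and 13.53 to 127.23 and 121.78, while 1464 olfactory and vomeronasal receptor genes, which are silent in most tissues, went from 140.37 and 148.7 to 256.23 and 256.42.

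The calls came from each cluster, with 7 of 11 members in cluster A, 4 of 10 in B, 3 of 9 in C and 3 of 9 in D. By position they were 5 of 12 anterior, 6 of 11 central and 6 of 16 posterior members. Among the anterior genes Hoxa2 (ENSMUSG00000014704), the gene for the identity of the second branchial arch, had no read in either DMSO library and stood at 2.99 and 3.90 FPKM in A-485, at least 33.1-fold higher (against a floor of 3 counts per library; adjusted p = 7.9e-05). Hoxa3, needed for the thymus and parathyroid, was at 0.16 and 0.07 FPKM in DMSO and 2.55 and 1.43 in A-485, a 13.1-fold rise (adjusted p = 0.0029). Hoxa4 rose 21.1-fold (adjusted p = 0.0061), and Hoxc4 rose from 1 count over both DMSO libraries, a ratio of 80.2 with a 95% exact interval of 13.9 to 3220 that covers counting error only.

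Of the central genes, Hoxb7 (ENSMUSG00000038721) was at 0.0 and 0.1 FPKM in DMSO and 2.82 and 3.41 in A-485, a ratio of 58.5 (interval 15.7 to 490; adjusted p = 0.0023) from 2 control counts. Hoxc6, a thoracic and brachial gene, was at 0.0 and 0.04 FPKM in DMSO and 2.25 and 1.85 in A-485, a ratio of 73.6 (12.7 to 2960; adjusted p = 0.0058). Hoxd8 was at 0.19 and 0.53 FPKM in DMSO and 3.11 and 2.68 in A-485 and rose 6.34-fold (adjusted p = 0.01). For these genes each A-485 library was well above each control. Hoxa5, which acts in lung development, rose with a ratio of 90.7 (15.7 to 3630; adjusted p = 0.0026), and Hoxb6 rose 6.42-fold (adjusted p = 0.045). The libraries disagreed for Hoxb8, at 0.22 and 2.81 FPKM in A-485 and without a read in DMSO. It was at least 14-fold higher (adjusted p = 0.005), and it was too low to be tested without A-485 replicate 2.

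Of the posterior genes Hoxd13 was highest, at 0.78 and 1.09 FPKM in DMSO and 16.16 and 10.95 in A-485. It rose 12.6-fold (log2 3.66 ± 0.34; adjusted p = 3.5e-06), and the gap between groups was much wider than that between libraries. Hoxb9, which patterns the ribs, was at 0.31 and 0.79 FPKM in DMSO and 3.09 and 2.7 in A-485, a 4.63-fold rise (adjusted p = 0.0097). The other posterior calls were Hoxa9, with a ratio of 55.8 (15 to 469), Hoxa10, with 42.0 (11.2 to 355), Hoxc10, with 46.6 (12.4 to 393), and Hoxd10, which rose 14-fold. Their adjusted p were 0.0025, 0.0037, 0.0054 and 0.026. In the order of mean level in A-485 embryos, Hoxa7 came before Hoxd13, and Hoxa2 before Hoxb7. The libraries of Hoxa2 and Hoxb7 overlapped, while those of Hoxa7 and Hoxd13 did not.

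DESeq2 also called 17 members higher with A-485, and 27 members had an unadjusted p under 0.05, all upward. Leaving out each library in turn kept 13 of the 16 calls of members named here in every fit in which they were tested: the call of Hoxa10 was lost without A-485 replicate 1, that of Hoxb6 without A-485 replicate 2 or DMSO replicate 1, and that of Hoxd10 without A-485 replicate 1 or DMSO replicate 2. Scaling the libraries to their mitochondrially encoded genes moved the median log2 change of all genes from 0.28 to -0.69 and left 13 members called, without Hoxb6, Hoxb9, Hoxd8 and Hoxd10. All 5 matched markers of the 2-cell stage were lower with A-485 here too, Zscan4c by 3.21-fold and Zfp352 by 4.66-fold, and their part in the rise of the Hox genes was not tested.

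With TSA, 19 of 39 members rose at the late 2-cell stage and 0 fell, where 13.8% of all genes tested were called higher and 13.9% lower. The median over the members went from 0.1 FPKM in DMSO to 1.15 in TSA, beside 0.805 and 1.84 over all protein-coding genes. Both TSA libraries lay above both controls for 36 of 39 members, as for 50.5% of all genes tested. The 38 members other than Hoxa7 summed to 5.97 and 7.51 FPKM in DMSO and 87.91 and 89.66 in TSA. In CPM they went from 9.89 and 14.29 to 156.66 and 152.53, beside 135.41 and 158.31 to 402.75 and 410.21 for the receptor genes. The calls were 6 of 11 members in cluster A, 5 of 10 in B, 3 of 9 in C and 5 of 9 in D. By position they were 5 of 12 anterior, 3 of 11 central and 11 of 16 posterior members.

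The highest of the posterior genes was Hoxa9 (ENSMUSG00000038227, chr6:52223100-52231089), known for its part in blood progenitors and leukaemia. It was at 0.65 and 0.15 FPKM in DMSO and 17.64 and 20.91 in TSA. The rise was 92.2-fold (log2 6.53 ± 0.4; adjusted p = 3.1e-07), and its TSA libraries lay above those of each member but Hoxa7. Hoxc10 (ENSMUSG00000022484, chr15:102966796-102971893), a gene of the lumbar region, had no read in DMSO and stood at 6.29 and 6.08 FPKM in TSA, at least 72.3-fold higher (adjusted p = 1.2e-06). Hoxa10, which acts in the uterus and lumbar vertebrae, was at 0.19 and 0.45 FPKM in DMSO and 4.35 and 3.48 in TSA and rose 10.1-fold (adjusted p = 0.00017). Hoxd13 was at 0.70 and 0.89 FPKM in DMSO and 3.70 and 3.95 in TSA. It rose 3.78-fold (log2 1.92 ± 0.3; adjusted p = 0.00043), with the libraries of each group close together. The other posterior members that rose were Hoxa13 (9.48-fold), Hoxb9 (8.55-fold), Hoxb13 (12.5-fold), Hoxc9 (18.7-fold), Hoxc13 (35.3-fold), Hoxd9 (5.92-fold) and Hoxd10 (7.87-fold), with adjusted p from 5.9e-05 to 0.0017. Hoxa13 acts in the limb tips and genital tract, Hoxb13 in the prostate and Hoxc13 in hair.

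Of the anterior genes, Hoxd1 (ENSMUSG00000042448, chr2:74762980-74765142), known from pain-sensing neurons, was at 0.51 and 0.85 FPKM in DMSO and 9.91 and 7.77 in TSA. It rose 10.1-fold (log2 3.34 ± 0.33; adjusted p = 1.1e-05). Its TSA libraries lay far above both controls. Hoxa3 was at 0.0 and 0.13 FPKM in DMSO and 3.19 and 3.76 in TSA, a 64.2-fold rise (adjusted p = 3.1e-05). Hoxb4, which can expand blood stem cells, rose 10.0-fold and Hoxa4 6.4-fold, with adjusted p of 0.0029 and 0.022. The central members called were Hoxd8, Hoxb6 and Hoxb8. Hoxd8 was at 0.02 and 0.38 FPKM in DMSO and 3.14 and 4.22 in TSA and rose 6.69-fold (adjusted p = 0.018). Hoxb6 rose 9.59-fold (adjusted p = 0.031), and Hoxb8 had a ratio of 19.5 (6.35 to 97.6; adjusted p = 0.0041). Hoxa7 was at 26.97 and 24.01 FPKM in TSA, 1.25-fold above DMSO with an adjusted p of 0.06.

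DESeq2 called 18 members with TSA, and 30 members had an unadjusted p under 0.05, all upward. Leaving out each library in turn kept 16 of the 18 calls of members named here: that of Hoxa4 was lost without DMSO replicate 1 or TSA replicate 1, and that of Hoxb6 without DMSO replicate 1 or TSA replicate 2. Of the 2-cell markers, 2 of 5 matched rose with TSA.

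**Figure D2:**
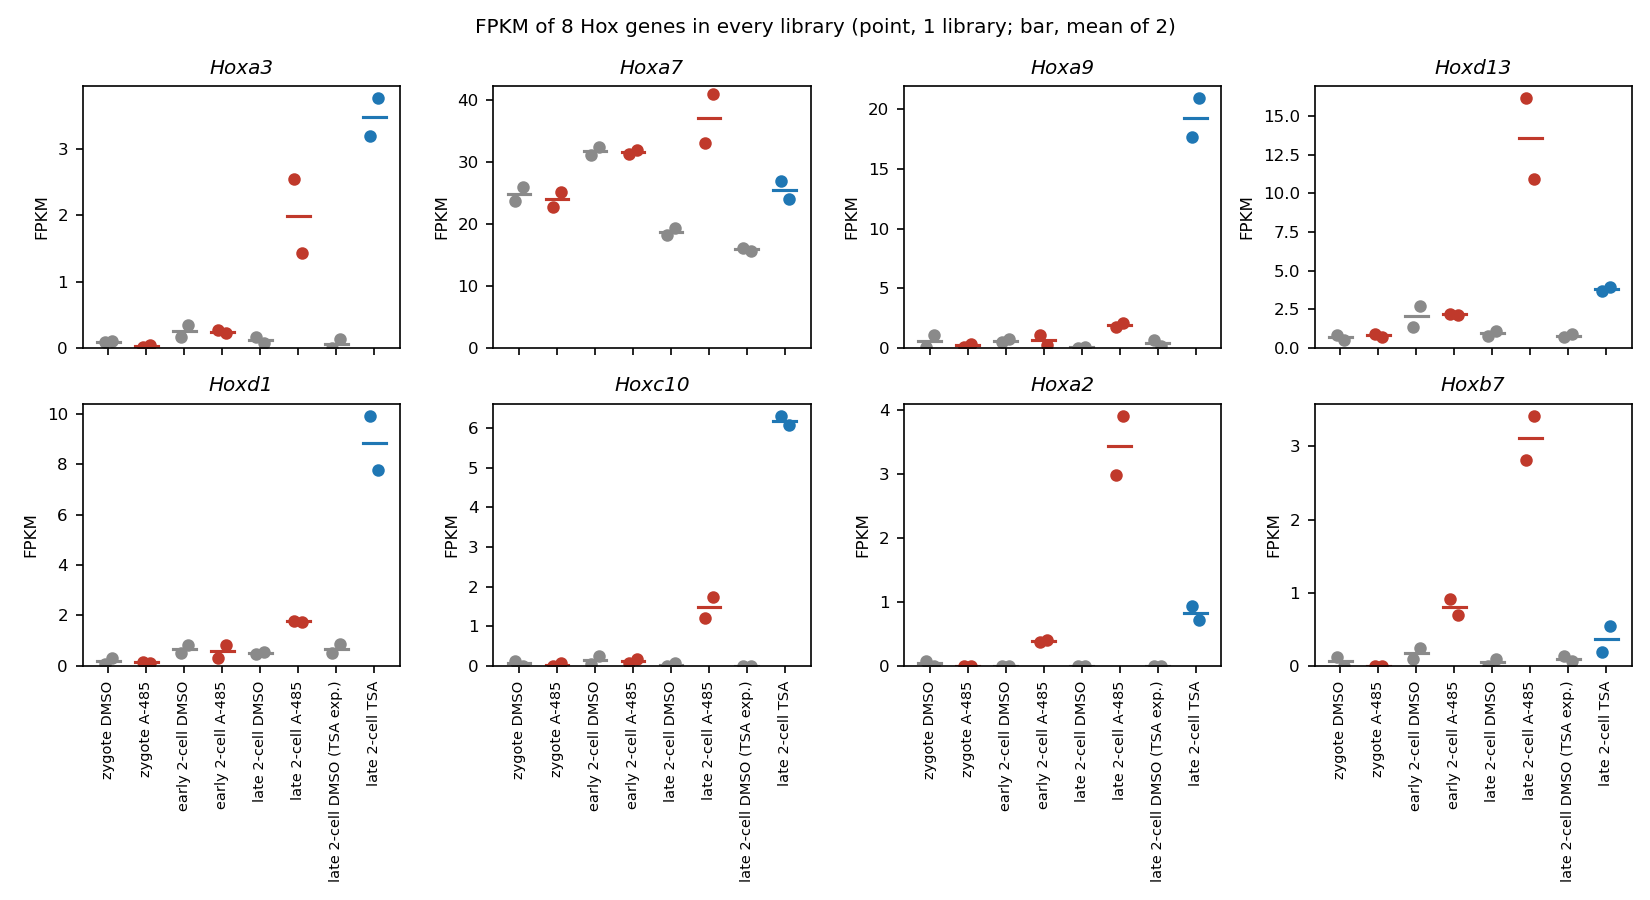
Level in FPKM (linear axis from 0, a scale of its own in each panel) of 8 Hox genes in the 8 groups, with 1 point per library, a bar at the mean of 2 and grey for DMSO, red for A-485 and blue for TSA. Hoxa9 lies at 17.64 and 20.91 FPKM with TSA against 1.74 and 2.09 with A-485, and Hoxd13 at 3.70 and 3.95 against 16.16 and 10.95.

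Promoters are shown for Hoxa9 and Hoxd1, the called members with the highest levels in TSA embryos. That of Hoxd13, highest of the called members in A-485 embryos, is shown too. Whether the RefSeq starts taken are those used in these embryos was not tested. Each line gives the 250 bases before a RefSeq start (GRCm38.p6), 5′ to 3′ on the gene's strand, with matches to the motifs searched in capitals. Hoxa9 lies at chr6:52227371-52227620 (minus strand), inside an intron of longer Hoxa9 transcripts, Hoxd1 at chr2:74762730-74762979 (plus strand), over an exon of the antisense gene Haglr, and Hoxd13 at chr2:74667975-74668224 (plus strand).
Hoxa9: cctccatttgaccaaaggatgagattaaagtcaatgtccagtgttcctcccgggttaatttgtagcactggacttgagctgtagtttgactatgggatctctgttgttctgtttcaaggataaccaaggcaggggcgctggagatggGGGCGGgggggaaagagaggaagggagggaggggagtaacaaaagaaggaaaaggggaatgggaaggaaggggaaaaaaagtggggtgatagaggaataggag
Hoxd1: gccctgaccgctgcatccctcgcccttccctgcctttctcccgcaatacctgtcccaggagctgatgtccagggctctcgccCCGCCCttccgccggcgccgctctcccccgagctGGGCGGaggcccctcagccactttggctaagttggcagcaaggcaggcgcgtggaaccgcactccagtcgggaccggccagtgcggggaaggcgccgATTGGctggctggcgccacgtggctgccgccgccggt
Hoxd13: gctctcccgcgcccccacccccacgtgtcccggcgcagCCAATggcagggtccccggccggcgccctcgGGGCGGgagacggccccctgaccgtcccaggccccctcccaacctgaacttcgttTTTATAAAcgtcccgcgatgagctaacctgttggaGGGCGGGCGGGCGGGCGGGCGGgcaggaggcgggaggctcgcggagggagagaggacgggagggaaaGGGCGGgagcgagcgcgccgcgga
The Hoxa9 stretch has 49.6% G and C and 3 CpG dinucleotides, that of Hoxd1 71.6% and 24, and that of Hoxd13 74.4% and 31. GGGCGG was matched 1 time in Hoxa9, 2 times in Hoxd1 and 7 times in Hoxd13, where several matches overlap. CCAAT was matched 1 time in Hoxd1 and in Hoxd13, and TATAAA 2 times in Hoxd13, at overlapping letters on opposite strands. The RefSeq table held 24 promoters of 22 members, and 17 members had none in it. Their median was 58.6% G and C with 12.5 CpG and an observed-to-expected CpG ratio of 0.72, beside 52.4%, 6 and 0.37 over 32851 promoters. Searched on both strands, CCAAT was in 58.3% of the Hox promoters and 33.8% of all, GGGCGG in 41.7% and 32.7%, TATAAA in 16.7% and 12.4%, AGGTCA in 25% and 14% and TGATNNAT in 16.7% and 7.68%. A match is a run of letters and not a site shown to be bound.

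The 2 treatments called 12 members in common, among them Hoxa3, Hoxa4, Hoxa9, Hoxa10, Hoxb6, Hoxb8, Hoxb9, Hoxc10, Hoxd8, Hoxd10 and Hoxd13, or 63.2% of the TSA calls and 70.6% of the A-485 calls. Each treatment had its own DMSO group, and TSA was given until 28 h while A-485 had been washed out at 20 h. Inhibitor, time window and experiment cannot be told apart where the 2 treatments are compared. Over all genes tested, 10.5% were called higher with late A-485 and 13.8% with TSA. The overlap of these calls over all genes was not counted, so the shared Hox calls are a description only. A further 7 members were called with TSA and not with A-485 (Hoxa13, Hoxb4, Hoxb13, Hoxc9, Hoxc13, Hoxd1 and Hoxd9), 5 with A-485 and not with TSA (Hoxa2, Hoxa5, Hoxb7, Hoxc4 and Hoxc6) and 15 with neither. For Hoxa2, Hoxa5 and Hoxc4 with TSA and for Hoxb4 with A-485 the mean under 1 FPKM alone kept the gene from being called. These differences in calls were tested by an interaction term over the 8 libraries, which called 3 of 39 members, where 14% of all genes tested were called. The effect of TSA was the larger for Hoxc13 (ENSMUSG00000001655), at 1.74 and 1.51 FPKM in TSA and 0.14 and 0.09 in A-485, by 5.07 ± 1.49 on the log2 scale (adjusted p = 0.025). It was also larger for Hoxd1, at 1.80 and 1.75 FPKM in A-485, by 1.88 ± 0.62 (adjusted p = 0.047). For Hoxd13 the effect of A-485 was the larger, with a TSA minus A-485 difference of -1.63 ± 0.45 (adjusted p = 0.016). DESeq2 called 2 members, and 6 members had an unadjusted p under 0.05 in each direction. The call of Hoxd1 was lost without any 1 of the 8 libraries, that of Hoxc13 without any 1 of 6 and that of Hoxd13 without any 1 of 4. With DESeq2 the call of Hoxd1 was lost too, and under mitochondrial scaling that of Hoxd13. For Hoxa9, Hoxc10 and Hoxb7, at 17.64 and 20.91, 6.29 and 6.08, and 0.19 and 0.54 FPKM in TSA, the differences were 1.0 ± 1.49, 5.3 ± 2.02 and -4.12 ± 1.71, with adjusted p of 0.75, 0.087 and 0.12.

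**Figure D3:**
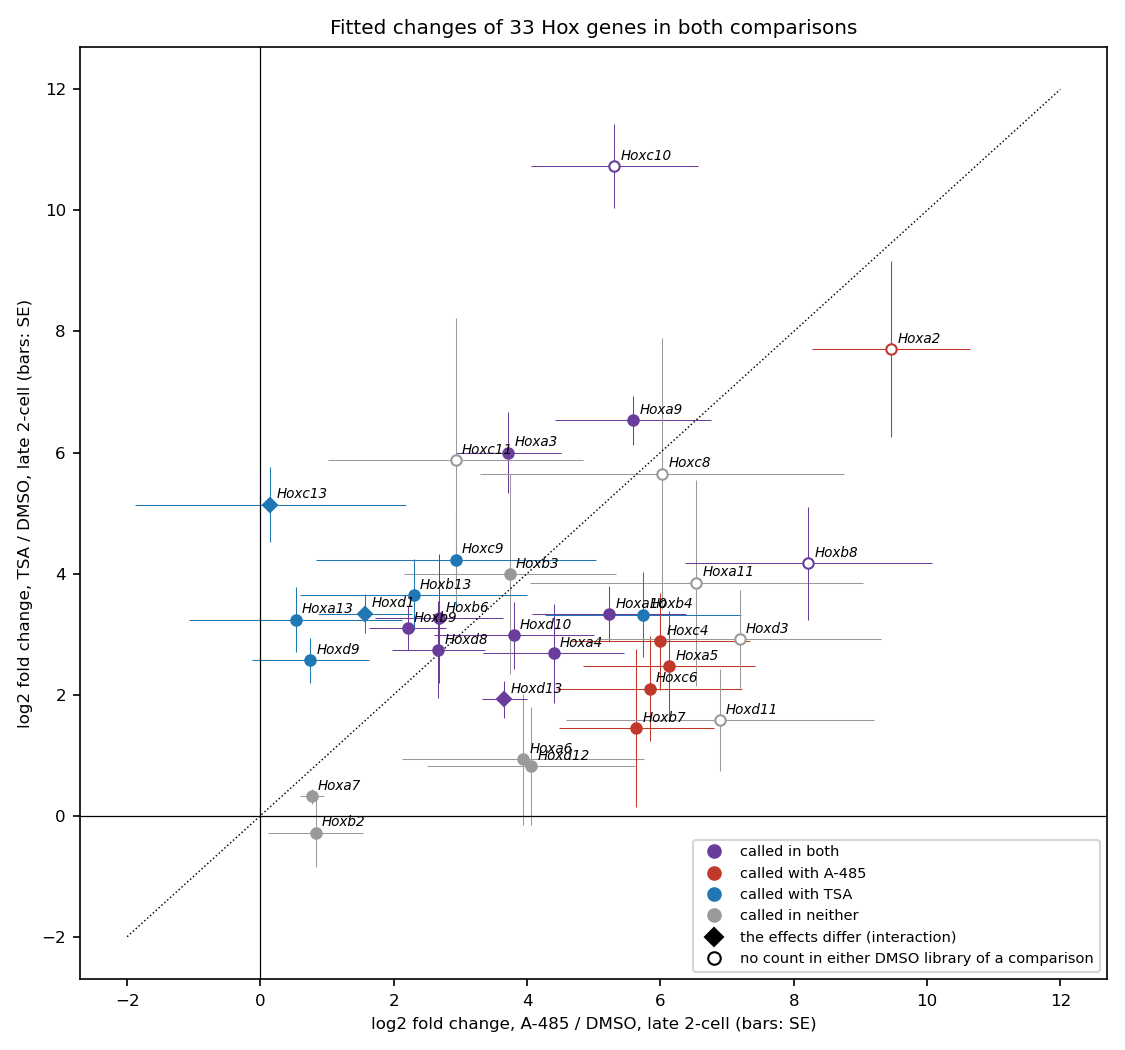
Fitted log2 change with A-485 (horizontal) and with TSA (vertical) at the late 2-cell stage for 33 Hox genes tested in both, with colour for the treatment in which a gene was called. Open symbols mark genes with no count in either DMSO library of a comparison, whose fitted change is no bound, and diamonds mark Hoxc13, Hoxd1 and Hoxd13, whose effects differed between treatments.

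Summed over paralogs, the levels of the 2 treated groups differed at some positions. They overlapped at others, such as position 4, at 4.0 and 3.56 FPKM in TSA and 3.67 and 4.06 in A-485. Paralogs numbered 9 summed to 26.21 and 29.62 FPKM in TSA and 5.98 and 5.87 in A-485, and those numbered 10 to 12.96 and 11.34 against 5.31 and 4.16. Those numbered 2 summed to 1.54 and 1.46 in TSA and 4.36 and 5.37 in A-485, and those numbered 7 without Hoxa7 to 0.19 and 0.54 against 2.82 and 3.41. The libraries of the 2 groups did not overlap at these positions, and the share of all genes without such an overlap was not counted. At position 9 Hoxa9 alone gave 17.64 and 20.91 FPKM in TSA, and position 7 without Hoxa7 is Hoxb7 alone. The interaction term above called neither Hoxa9 nor Hoxb7. At position 13 they were at 10.82 and 11.08 FPKM in TSA and 17.38 and 11.43 in A-485, and the lower A-485 library was close to those of TSA. All posterior members summed to 51.78 and 53.83 FPKM in TSA and 30.37 and 23.33 in A-485, anterior members to 26.78 and 26.30 against 24.03 and 25.96, and central members without Hoxa7 to 9.35 and 9.53 against 13.51 and 18.12. These sums are levels from 2 experiments and were not tested against each other.

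**Figure D4:**
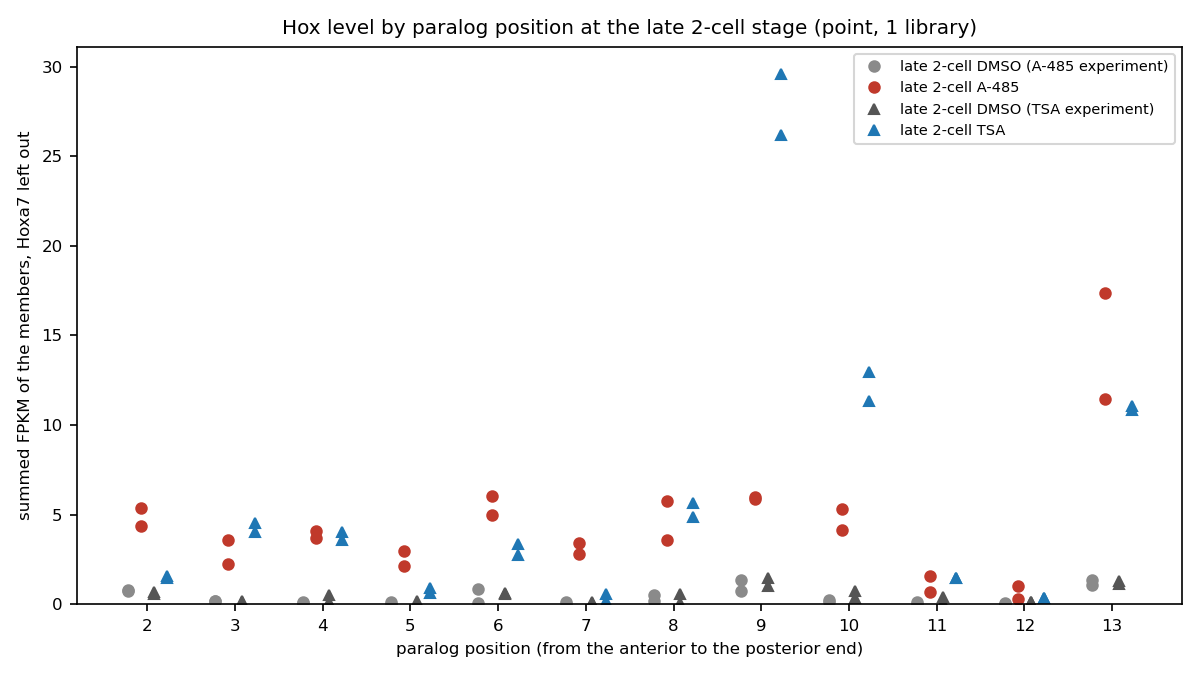
Summed FPKM of the Hox genes other than Hoxa7 by paralog position (2 to 13, anterior to posterior), with 1 point per library, in the 4 late 2-cell groups. TSA libraries stand at 26.21 and 29.62 FPKM at position 9, where A-485 libraries stand at 5.98 and 5.87.

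The A-485 effects at the early and late 2-cell stages were compared by an interaction term chosen after their values were seen. It called 12 of 39 members, where 15.9% of all genes tested were called, and in each the effect was more upward at the late stage. Hoxa10, Hoxb9 and Hoxd13, with differences of 6.95, 3.63 and 3.62 on the log2 scale, were called whichever library was left out. Others called were Hoxa3, Hoxa4, Hoxa5, Hoxa9, Hoxb2, Hoxb4, Hoxc4 and Hoxc10. Hoxb2, which had fallen at the early stage, was at 0.77 and 0.73 FPKM in late 2-cell DMSO and 1.37 and 1.47 in A-485, a change of 0.83 ± 0.71 with an adjusted p of 0.38.

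The 3 uncalled members with the highest means over all libraries were Hoxa7 (26.16 FPKM), Hoxa6 (0.39) and Hoxd11 (0.25). Hoxa7 was at 33.04 and 40.98 FPKM in late 2-cell A-485, 1.7-fold above DMSO (log2 0.77 ± 0.18; adjusted p = 0.0052), under the fold asked for. Mitochondrial scaling turned it to -0.21, along with a shift of -0.97 in the median of all genes, and relative to that median its change was 0.49 before and 0.48 after. Hoxa6 was at 0.0 and 0.15 FPKM in DMSO, 0.69 and 2.23 in A-485, 0.42 and 0.17 in the DMSO libraries of the TSA experiment and 0.90 and 0.56 in TSA. Hoxd11 was without a read in the DMSO libraries of A-485 and at 0.36 and 0.21 FPKM with it, and at 0.03 and 0.37 in the DMSO libraries of the TSA experiment and 0.91 and 1.12 in TSA. A further group of members had an adjusted p under 0.05 with A-485 at the late stage but a mean under 1 FPKM, and these were Hoxb4, Hoxb5, Hoxc5, Hoxd3 and Hoxd11. With TSA they were Hoxa2, Hoxa5, Hoxc4, Hoxd3 and Hoxd4. Exons of 16 members overlap another gene, among them Hoxa9 with Mir196b and Hoxc10 with Hoxc5, and no count of a member had a posterior SD over 3.44 reads in the deposited estimates. Of the members with an overlap 7 were called with A-485 and 6 with TSA, and of the 23 without such an overlap 10 were called with A-485 and 13 with TSA.

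Genes that act with the Hox proteins or upstream of them were taken as lists, whose counts stand beside 10.5% of all genes called higher and 16.8% lower with late A-485, 13.8% and 13.9% with TSA and 0.402% and 7.9% with early A-485. With so few genes a list, the counts are given as a description. Of 9 cofactor genes, 3 rose with A-485 at the late 2-cell stage, namely Meis2 (2.03-fold, to 161.3 FPKM ± 5.99, SD, n = 2), Pbx2 (3.11-fold) and Meis1 (13.4-fold), and Pknox1 fell 5.67-fold. With TSA Meis1 rose 5.74-fold and Pknox1 fell 3.13-fold. Of 15 related homeobox genes outside the clusters, 2 rose with A-485 (En2, 38.2-fold, and En1, 25.1-fold) and 7 with TSA, led in level by Gbx2 (3.07-fold), Pdx1 (9.54-fold) and En2 (8.67-fold). En1 and En2 act at the boundary of midbrain and hindbrain and Pdx1 in the pancreas. Of 14 retinoic acid genes, the receptor gene Rarg fell with A-485 at the early stage (5.63-fold), with A-485 at the late stage (8.66-fold) and with TSA (3.12-fold). The enzymes Cyp26a1 (11.1-fold) and Aldh1a3 (4.07-fold), which break down and make retinoic acid, and the binding protein Crabp1 (9.35-fold) were among 4 that rose with A-485. With TSA 7 rose, led by Aldh1a3 (2.74-fold), Crabp2 (3.68-fold) and Aldh1a1 (62.3-fold), and Rxra fell 2.19-fold. Of 17 trithorax and Polycomb genes, 3 rose with A-485 at the late stage, Kmt2a (4.07-fold) and Cbx8 (16.7-fold) among them, and Ezh2 (2.02-fold), Kmt2b (2.1-fold) and Ezh1 (3.21-fold) fell. With TSA 4 rose, Cbx8 (13.4-fold) and Kmt2a (2.57-fold) among them, and Ezh1 fell 2.0-fold. Kmt2a is a trithorax methyltransferase, Ezh1 and Ezh2 are the Polycomb methyltransferases, and Cbx8 is a Polycomb subunit. In zygotes edgeR called 0 genes of these 4 lists.

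Accessible chromatin at the Hox genes was sparse. Each list holds the peaks that the deposited pipeline kept over 2 replicates of a group, so the lists allow no test. A peak within 1 kb of an annotated start was present for 2 of 39 members (5.13%) in late 1-cell DMSO embryos, Hoxd1 among them, and for 1 (2.56%) with A-485. Over all protein-coding genes the shares were 26.2% and 24.7%. In early 2-cell embryos it was present for 2 members (5.13%) in DMSO, Hoxa7 among them, and for 6 (15.4%) with A-485, which included Hoxa4, Hoxa7, Hoxb9, Hoxc6 and Hoxd13, beside 31.7% and 40.9% of all genes. The 4 lists held 10214 and 7094 peaks for late 1-cell DMSO and A-485 and 27693 and 13712 for early 2-cell. Each list was also cut to its strongest 7094 peaks. At the early 2-cell stage 0 members then had a promoter peak in DMSO or A-485, beside 9.02% and 24.8% of protein-coding genes. The Hoxa7 peak had a fold enrichment of 5.83 in DMSO and 5.9 in A-485 at the early 2-cell stage. The Hoxd1 promoter printed above lay under the late 1-cell DMSO peak (chr2:74762626-74763351) and that of Hoxd13 under an early 2-cell A-485 peak (chr2:74667684-74668350). Of the 6 members with a peak in early 2-cell A-485 embryos, Hoxa4, Hoxb9, Hoxc6 and Hoxd13 were called higher with A-485 at the late 2-cell stage. Among all 39 members, with or without a peak, 17 were called higher there. The same share over all genes with a promoter peak was not counted, and a part of the peaks in the rise was not tested. Within 5 kb of the clusters there were 5, 2, 4 and 4 peaks in A, B, C and D with A-485 at the early 2-cell stage and 2, 4, 1 and 0 in DMSO. At the late 1-cell stage there were 1, 1, 0 and 0 with A-485 and 1, 0, 0 and 3 in DMSO. In cluster D, 2 of the late 1-cell DMSO peaks (chr2:74715656-74716293 and chr2:74749361-74750198) overlapped early 2-cell A-485 peaks (chr2:74715675-74716293 and chr2:74749332-74750161).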

How the data were processed

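Total RNA libraries (SMART-Seq Stranded Kit) were trimmed by the authors with Trimmomatic 0.39, aligned to GRCm38 with STAR 2.7.8a and quantified with RSEM 1.3.1. The deposited tables give expected counts and FPKM per gene, both as the authors' RSEM output. The gene length that enters FPKM was estimated per library, and ran from 735 to 2478 bases for Hoxd8 and 457 to 3033 for Hoxa9. Folds were fitted on counts with a scaling of their own, so they can differ from ratios of FPKM. Levels, ranks and sums in FPKM depend on these lengths. ATAC-seq peaks were deposited with a fold enrichment (a ratio of signal to background) for each group, as kept by the authors' pipeline over its replicates. The CUT&RUN data were not analysed here. Whether counting used strand is not given in the sources used here.

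The Hox members, the gene lists and the tests were chosen with earlier results of these data known. After rounding of the expected counts to integers, genes with at least 10 summed counts in a comparison were fitted with edgeR 4.0.16 (R 4.3.3; TMM, quasi-likelihood F test, Benjamini-Hochberg adjustment over all genes tested), using only the libraries of that comparison. Calls needed an adjusted p under 0.05, a fold of 2 and a mean of 1 FPKM in either group, and interaction terms used the first 2 of these criteria. DESeq2 1.42.0, other scalings, no filter, all 16 libraries in 1 fit, a replicate block and each library left out were the alternatives. The fitting was tested on simulated data, where the share of false calls was above the nominal level, so adjusted p-values near the threshold are optimistic. Depth was 13206163 to 32585987 counts per library, where 3 counts, the floor used for genes without a control read, limit what can be seen. Values per library are printed for the called members with the highest means (up to 8 per comparison) and the 3 highest uncalled members, called members are named, and from other lists up to 3 genes per direction are named. Promoters are printed for the 2 highest called members in TSA embryos and for Hoxd13, taken from the members with an ATAC peak. Some items are not reported here.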

Additional observations from a re-analysis of the deposited data

Results flagged for a closer look

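The effects of TSA and A-485 at the late 2-cell stage differed, by an edgeR interaction test over 8 libraries, for 3 of 39 Hox genes. Over all genes tested 14% were called, and each of the 3 Hox calls was lost when certain single libraries were left out. The TSA minus A-485 difference in log2 change was 5.07 for Hoxc13, 1.88 for Hoxd1 and -1.63 for Hoxd13. Inhibitor, time window and experiment cannot be told apart in these differences. A test of the same kind, chosen after the values were seen, compared the A-485 effects at the late and early 2-cell stages. It called 15.9% of all genes tested, and the effects differed for 12 of 39 Hox genes. The late minus early difference in log2 change was, among these, 4.02 for Hoxa3, 6.28 for Hoxa4, 5.69 for Hoxa5, 5.15 for Hoxa9, 6.95 for Hoxa10, 3.83 for Hoxb2, 5.92 for Hoxb4, 3.63 for Hoxb9, 6.14 for Hoxc4, 5.62 for Hoxc10 and 3.62 for Hoxd13. Genes with few control reads have differences that depend on the prior count.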

How the results depend on the processing

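No named Hox gene that was called reversed its direction under any alternative run. Among alternatives other than leaving out a library, 370 values of named genes kept their call and 24 lost it, and with a library left out 188 kept it and 71 lost it. From zygote to early 2-cell, 6 members instead of 3 were called without the FPKM cutoff. From early to late 2-cell, 2 instead of 1 were called with all 16 libraries in 1 fit or with the DMSO group of the TSA experiment. Under mitochondrial scaling the TSA and A-485 effects differed for 6 members instead of 3. In all 6 the effect of TSA was the more upward, and the call of Hoxd13 was lost. That of Hoxd1 was lost with DESeq2, with its size factors in edgeR, without the filter on low counts and with all 16 libraries in 1 fit. The late and early A-485 effects differed for 5 members instead of 12 under mitochondrial scaling. Leaving out 1 library gave 0 to 1 members lower with A-485 at the early 2-cell stage, 2 to 4 from zygote to early 2-cell, 1 to 2 from early to late 2-cell, 0 to 2 for TSA against A-485, and 5 to 10 for late against early A-485, with 5 without early 2-cell A-485 replicate 2 and 6 without late 2-cell A-485 replicate 2. Promoter peaks were found for 0 members in early 2-cell A-485 and DMSO and 1 in late 1-cell DMSO when lists were cut to their strongest 7094 peaks, and for 1 in early 2-cell DMSO with the outermost start. Over all genes, mitochondrial scaling turned 2406 higher and 3824 lower with late A-485 into 1177 and 6874, 2257 and 3002 from zygote to early 2-cell into 1270 and 8196, 2924 and 791 for TSA against A-485 into 5405 and 387, and 2109 and 1876 for late against early A-485 into 1094 and 5466. Total counts turned 3237 and 3247 with TSA into 4106 and 2385. Libraries with the same number did not deviate together (r from -0.036 to 0.065 over genes). A replicate block gave 17 members with late A-485 and 20 with TSA and changed 1 named call, that of Hoxc4 between late and early A-485. Depth limits the members with few control reads, whose folds have wide counting intervals or are lower bounds.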

Other observations

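Within the clusters 43 noncoding genes were listed, most of them with too few counts to be tested. With TSA 8 were tested and 0 called, where 13.8% of all genes tested were called higher. With A-485 at the late 2-cell stage 11 were tested and 2 rose, where 10.5% of all genes tested were called higher. These were Haglr, antisense to the Hoxd1 side of cluster D, at a mean of 1.61 FPKM against 0.26 in DMSO (8.1-fold, edgeR adjusted p = 0.018), and Hoxd3os1, at 1.47 FPKM with no read in DMSO (adjusted p = 0.031). Among 16 protein-coding genes that flank the clusters, Hibadh beside cluster A rose 2.3-fold with A-485 and Calcoco2 beside cluster B fell 16.3-fold. With TSA, Lnpk beside cluster D rose 2.03-fold and Calcoco1 beside cluster C 2.56-fold, while Calcoco2 fell 4.56-fold, Cbx5 3.16-fold, Mtx2 3.7-fold and Snx10 2.24-fold. The flanking genes that were called moved in both directions, and the Hox genes called at this stage all rose. Over all genes tested, 10.5% were called higher and 16.8% lower with late A-485, and 13.8% and 13.9% with TSA. Whether the Hox genes differ from their neighbours was not tested.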
